A study of Mus musculus with 23 samples.

Results

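Antimicrobial proteins in a mammary tumor can be made by the epithelium itself or by the neutrophils that enter it, and the 8 genes described here stand for these sources. They are rows of the deposited expression table taken by symbol: Lcn2, Ltf, Wfdc18 and Pglyrp1 as epithelial members, and S100a8, S100a9, Retnlg and Mmp8 as neutrophil members. All 8 were in the table of 14535 genes, and all 8 were among the 12041 genes tested. The names of the sets come from the choice of symbols, and the comparisons below ask how far the 8 genes moved with each other, with other epithelial genes and with other neutrophil genes.

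The data are bulk RNA-seq of 23 primary mammary tumors in a single labelled group, Brca1-deficient mice of mixed strain, with 1 library per tumor and no normal tissue, so every comparison is one across tumors. Per the study's methods the mice carried MMTV-Cre and Brca1 fl/fl, some with Trp53 fl/+ as well, on a mixed strain background. The mouse mammary tumor virus promoter drives Cre mainly in mammary epithelium, so the stromal and blood cells of a tumor piece need not have lost Brca1. The Trp53 state of single tumors and the age of the animals are not given in the labels, and the titles hold 19 distinct numbers, of which 4 occur in a pair of tumors each. Since nothing states that tumors came from separate animals, p-values describe the variation among these libraries, which may in part be technical. Values are log2(FPKM + 1), where FPKM is the number of fragments scaled by transcript length and library total. Between 11829 and 12863 genes per tumor were above 0, the depth is unknown, and the summed FPKM was lowest in X92T, at 387531, and highest in X149T2, at 1677860, of which short non-coding RNAs made up 72.7%.

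Several of these proteins work by withholding nutrients from microbes. Lipocalin 2 (Lcn2) binds the siderophores with which bacteria collect iron, and lactoferrin (Ltf), a major protein of milk, binds iron directly. Peptidoglycan recognition protein 1 (Pglyrp1) binds the bacterial cell wall, and Wfdc18 encodes a small secreted protein of the whey acidic protein family made by mammary epithelium. S100a8 and S100a9 encode the subunits of calprotectin, a calcium-binding complex that sequesters zinc and manganese, fills the cytosol of neutrophils and can also be induced in keratinocytes. Retnlg, a resistin-like gene of mouse myeloid cells, and Mmp8, the neutrophil collagenase, complete the neutrophil set. Lcn2, Ltf and Pglyrp1 proteins are stored in neutrophil granules too, which is why the same gene can in principle report on either source. In bulk tissue, fewer cells of a type and less RNA per cell cannot be told apart.

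The 8 genes lie on 6 chromosomes. In the GENCODE annotation of GRCm38, the assembly that mm10 names, Lcn2 spans chromosome 2 from 32384633 to 32388252 on the minus strand, Wfdc18 chromosome 11 from 83709015 to 83711348 and Pglyrp1 chromosome 7 from 18871331 to 18890459. S100a8 (chromosome 3, 90668978 to 90670035, plus strand) and S100a9 (chromosome 3, 90692632 to 90695721, minus strand) are neighbours separated by 22596 bases. Retnlg lies on chromosome 16 from 48872621 to 48874496. Ltf (111019271 to 111042767) and Mmp8 (7558456 to 7568485) share chromosome 9 but sit at distant positions. All 8 are protein-coding, and no other annotated gene overlapped any of them.

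Promoter sequence is shown for the genes on which the comparisons below turn, so that members that did and did not move together can be read side by side. Each run is the 250 bases before the RefSeq start in GRCm38.p6, written 5′ to 3′ on the strand of the gene, and capitals mark TATAAA, the letters of a TATA box, or TTGCNNAA in either orientation, the letters of a C/EBP element. The Lcn2 run covers chr2:32387740-32387989 (minus strand), Wfdc18 chr11:83708754-83709003 (plus strand), S100a8 chr3:90668821-90669070 (plus strand) and S100a9 chr3:90695722-90695971 (minus strand). RefSeq starts can differ from the GENCODE spans above. The Lcn2 run lies inside its GENCODE span, and the S100a8 run reaches past its GENCODE start. Distances below are from the RefSeq start.
Lcn2: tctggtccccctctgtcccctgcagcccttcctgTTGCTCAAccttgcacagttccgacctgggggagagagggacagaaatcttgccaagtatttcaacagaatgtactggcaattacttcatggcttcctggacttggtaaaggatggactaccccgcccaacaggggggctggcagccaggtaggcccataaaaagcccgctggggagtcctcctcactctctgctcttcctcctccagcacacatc
Wfdc18: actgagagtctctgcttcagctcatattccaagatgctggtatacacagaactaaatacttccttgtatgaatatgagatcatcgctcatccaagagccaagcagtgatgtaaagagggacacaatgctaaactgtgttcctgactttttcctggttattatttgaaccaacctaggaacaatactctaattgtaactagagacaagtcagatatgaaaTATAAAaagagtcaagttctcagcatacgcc
S100a8: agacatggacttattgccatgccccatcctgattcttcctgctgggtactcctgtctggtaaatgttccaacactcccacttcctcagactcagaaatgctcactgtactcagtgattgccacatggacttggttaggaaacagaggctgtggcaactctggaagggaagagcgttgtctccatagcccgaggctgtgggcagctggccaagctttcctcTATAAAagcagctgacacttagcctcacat
S100a9: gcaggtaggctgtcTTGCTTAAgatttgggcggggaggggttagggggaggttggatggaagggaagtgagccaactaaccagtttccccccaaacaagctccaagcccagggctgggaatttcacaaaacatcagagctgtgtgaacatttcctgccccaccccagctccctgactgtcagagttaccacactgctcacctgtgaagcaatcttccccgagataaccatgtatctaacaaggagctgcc
Wfdc18 and S100a8, from different sets, held TATAAA at 31 and 30 bases before the start, whereas Lcn2 held TTGCTCAA at 216 bases and S100a9 held TTGCTTAA at 236 bases before it. For the remaining members with TTGCNNAA, a shorter stretch around the match is given: Ltf at chr9:111019201-111019240 (plus strand), Retnlg at chr16:48872358-48872385 (plus strand) and Mmp8 at chr9:7558394-7558428 (plus strand).
Ltf: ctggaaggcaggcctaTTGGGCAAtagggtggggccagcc
Retnlg: agctTTCTGCAAggcattccaggcacct
Mmp8: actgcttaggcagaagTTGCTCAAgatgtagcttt
TTGCNNAA was thus found in 5 of 8 members, 2 epithelial and 3 neutrophil, and in 9.56% of 32851 RefSeq promoter windows of the same length. TATAAA was found in 2 of 8 members and in 12.4% of windows. Both were searched on either strand. Of 11 other elements searched in the same way, TATAAN, which includes TATAAA, occurred in 3 of 8 members and 22.7% of windows, TTNCNNAA, which includes every TTGCNNAA match, occurred in 6 of 8 members and 36.8% of windows, and AGGAAG in 6 of 8 and 29.5%, among them all 4 epithelial members and, of the neutrophil members, S100a8 and Mmp8. An NF-kB element occurred in Lcn2, Ltf and Pglyrp1 and 45.8% of windows in its loose form and in Pglyrp1 and 4.11% of windows in its strict form, and TTNNGNAAT, which overlaps TTGCNNAA in Ltf, in 2 members and 10.2%. TTGCGNAA (0.67% of windows), TTCNNNGAA (7.02%), CCGGAA (12.03%), TGANTCA (6.75%) and CACGTG (6.02%) were in none of the 8 windows. These matches describe letters in a window.

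Lcn2 was among the most abundant transcripts of these tumors. By mean FPKM it ranked 5th of 14374 genes, short non-coding RNAs left out, with a mean of 2464 FPKM. Its level ran from 1.58 in X9387T through a median of 11.18 to 13.22 in X1463T2, with a mean of 9.86 ± 3.17 (SD, n = 23). Wfdc18 ranked 51st and ran from 0, listed in X520T, through a median of 10.15 to 12.13 in X1515T (8.48 ± 3.46, SD, n = 23). Most tumors thus carried either transcript at a high level and a few carried very little of it, as the means below the medians show. Pglyrp1 ran from a listed 0 in X92T through 7.14 to 9.80 in X437T (6.28 ± 2.78, SD, n = 23). Ltf was lower and more graded, from a listed 0 in 4 tumors through 4.15 to 9.79 in X1515T (3.86 ± 2.68, SD, n = 23). Its high end, X1515T at 9.79, X731T at 7.72, X153T at 7.31 and X149T1 at 7.08, did not coincide with that of Lcn2, which was led by X1463T2, X147T, X370T and X1310T1.

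**Figure D1:**
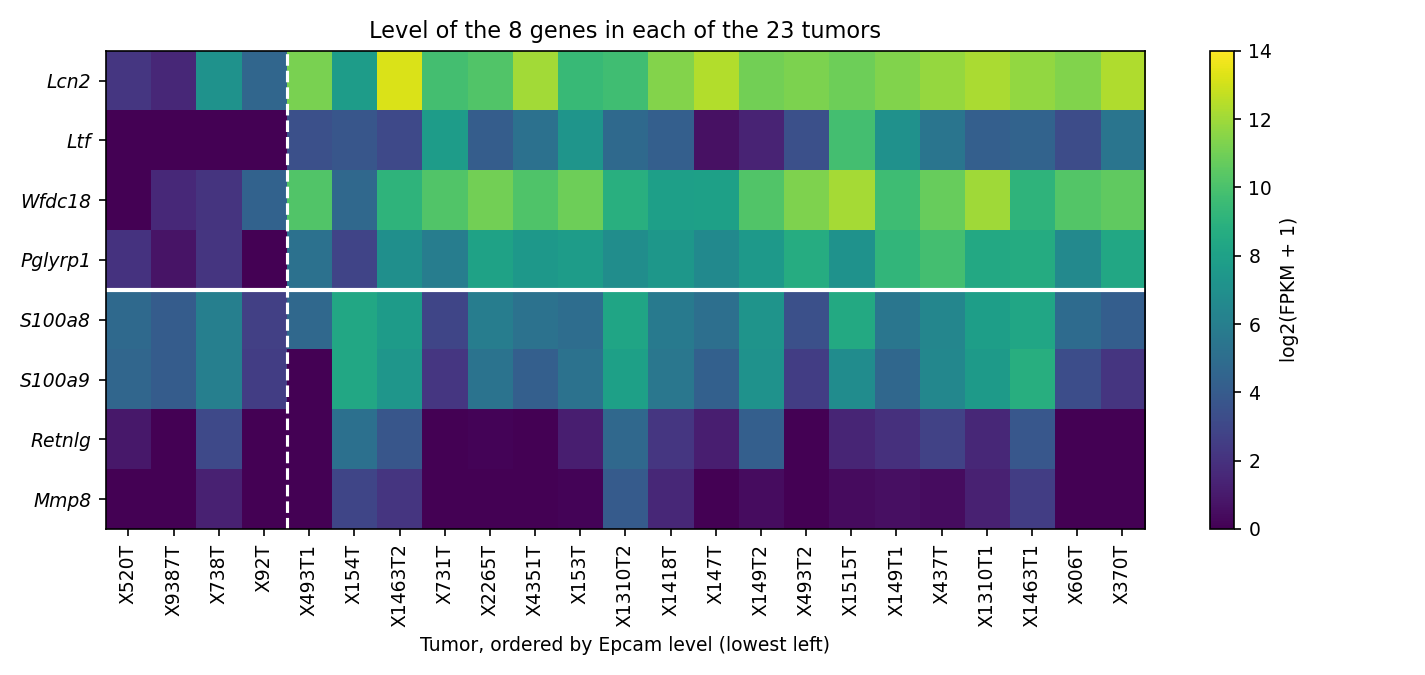
Level of each member in log2(FPKM + 1), shown as color from 0 to 14, with tumors in columns ordered by Epcam from left to right, the epithelial members above the solid line and the 4 tumors lowest in Epcam left of the dashed line. The epithelial members are dark in those 4 columns, where Ltf is listed at 0 in each, and the neutrophil members vary from column to column on either side of the line.

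The calprotectin genes S100a8 and S100a9 had no such group of nearly empty tumors, whereas Retnlg and Mmp8 were low in most. S100a8 was above 0 in every tumor, from 2.68 in X92T through a median of 5.50 to 8.53 in X1515T (5.78 ± 1.78, SD, n = 23). S100a9 ran from a listed 0 in X493T1 through 5.25 to 8.78 in X1463T1 (5.11 ± 2.30, SD, n = 23). Their high tumors were largely shared: X154T, X1463T1, X1310T2, X1310T1 and X1463T2 all had 7.36 or more in both genes. Retnlg was listed at 0 in 7 tumors and reached 5.14 in X154T, with a median of 1.20, and 13 tumors had an FPKM of 1 or more. Mmp8 was listed at 0 in 11 tumors, had a median of 0.16 and peaked at 4.02 in X1310T2, and only 7 tumors had an FPKM of 1 or more. X154T and X1310T2 held the highest 2 levels of either transcript, and both tumors also stood high in S100a8.

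Ordered by median, the levels fell from Lcn2 through Wfdc18, Pglyrp1, S100a8, S100a9, Ltf and Retnlg to Mmp8. Since FPKM is scaled by length, these levels can be set beside each other. Among neighbours in this order, only the mean difference between Wfdc18 and Pglyrp1 exceeded its own spread across tumors, at 2.201 ± 1.75 log2 units (SD, n = 23), with Wfdc18 higher in 21 of 23 tumors. The Lcn2 to Wfdc18 difference was 1.37 ± 1.79 (SD, n = 23) and the S100a8 to S100a9 difference 0.67 ± 1.09 (SD, n = 23), neither beyond its spread. As a measure of variation over the tumors, Wfdc18 ranked 53rd, Lcn2 71st, Pglyrp1 114th and Ltf 127th by SD of 12041 tested genes, and S100a9 ranked 208th, S100a8 450th, Retnlg 501st and Mmp8 1979th.

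Much of the range of Lcn2, Wfdc18 and Pglyrp1 lay between a few tumors and the rest. Epcam, which encodes an adhesion molecule of epithelial cells, had a wide gap in its values from 3.10 to 6.18 that placed X520T, X9387T, X738T and X92T below the other 19 tumors. In those 4 tumors Lcn2 read 2.24, 1.58, 7.12 and 4.61, against 7.76 to 13.22 in the other 19. Wfdc18 read 0, 1.61, 2.12 and 4.43 there, against 4.72 to 12.13, and Pglyrp1 read 2.05, 0.74, 2.18 and 0, against 2.87 to 9.80. For these 3 genes and for Ltf, listed at 0 in all 4, the ranges did not overlap, and X154T held the lowest of the 19 values in Lcn2, Wfdc18 and Pglyrp1. How many of all tested genes part these tumors in the same way was not counted. The separation is therefore not shown to be particular to the members. The SD within the 19 tumors was 1.27 for Lcn2 against 3.17 over all 23, 1.704 against 3.46 for Wfdc18 and 1.56 against 2.78 for Pglyrp1. Ltf still varied widely among the 19, from 0.62 to 9.79, with an SD of 2.19 against 2.68 over all 23. For the neutrophil members the same 4 tumors lay inside the range of the rest, apart from S100a8 in X92T. S100a8 read 4.79, 4.08, 6.06 and 2.68 there against 2.95 to 8.53, and its SD was 1.75 within the 19 tumors against 1.78 over all 23. The tumors were parted by a measured gene and not by a label, so no test was made between them.

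The question whether the epithelial members rose and fell together was addressed by pairs. Over 23 tumors, Lcn2 and Pglyrp1 were closely related, with r = 0.86 and rho = 0.62 (permutation p = 1e-05 and 0.00227, the former the smallest that 100000 draws can give). In limma, fitted over all genes on Lcn2, the adjusted p of Pglyrp1 was 5.12e-06, and r was 0.84 when the 2 tumors most distant from the Lcn2 median, X9387T and X520T, were left out. Ltf followed Pglyrp1 with r = 0.64 and rho = 0.60 (permutation p = 0.00095 and 0.00262, limma adjusted p = 0.019, and r = 0.66 without the 2 farthest tumors). Lcn2 and Ltf gave r = 0.53 but rho = 0.29 (permutation p = 0.00958 and 0.174, limma adjusted p = 0.044). Without X9387T and X520T this r was 0.31, so the relation of Lcn2 with Ltf rested on those tumors. Its call ended on leaving out any of X520T, X9387T, X92T, X738T, X370T, X437T, X149T1, X4351T, X1463T1 or X1310T1, with adjusted p up to 0.15, and that of Ltf with Pglyrp1 on leaving out X520T, X738T or X9387T, with adjusted p up to 0.057. Within 15 tumors above a gap in Fos, an immediate early gene, Lcn2 with Ltf (r = 0.41, limma adjusted p = 0.29) and Ltf with Pglyrp1 (r = 0.57, 0.16) did not pass. With the title number as a block, and with no filter on low values, Lcn2 with Ltf did not pass either, at limma adjusted p of 0.057 and 0.054. As background, 10.8% of genes were called on Lcn2, 4.18% on Ltf and 8.79% on Pglyrp1.

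Wfdc18 has to be read within 18 tumors, because a gap from 4.72 to 7.88 splits its values into separate clusters. Within those 18 tumors, Wfdc18 gave r = -0.19 with Lcn2 (rho = -0.28, permutation p = 0.455 and 0.258, limma adjusted p = 0.82), 0.45 with Ltf (rho = 0.35, permutation p = 0.0616 and 0.158, limma adjusted p = 0.25) and 0.26 with Pglyrp1 (rho = 0.32, permutation p = 0.305 and 0.192, limma adjusted p = 0.94). Within the 18 tumors, 0.0332% of genes were called on Lcn2, 0.174% on Ltf and 0% on Wfdc18. None of these 3 pairs passed the test, and the r of 0.45 fell to 0.06 without X1515T and X147T. Of the 6 epithelial pairs, 3 were therefore called. The same dependence was seen for the other pairs within the 19 tumors above the gap in Epcam, where r was -0.26 for Lcn2 with Ltf (limma adjusted p = 0.64), 0.56 for Lcn2 with Pglyrp1 (0.15) and 0.18 for Ltf with Pglyrp1 (0.70), and 0.964% of genes were called on Lcn2. Within those 19 tumors no epithelial pair passed the threshold.

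**Figure D2:**
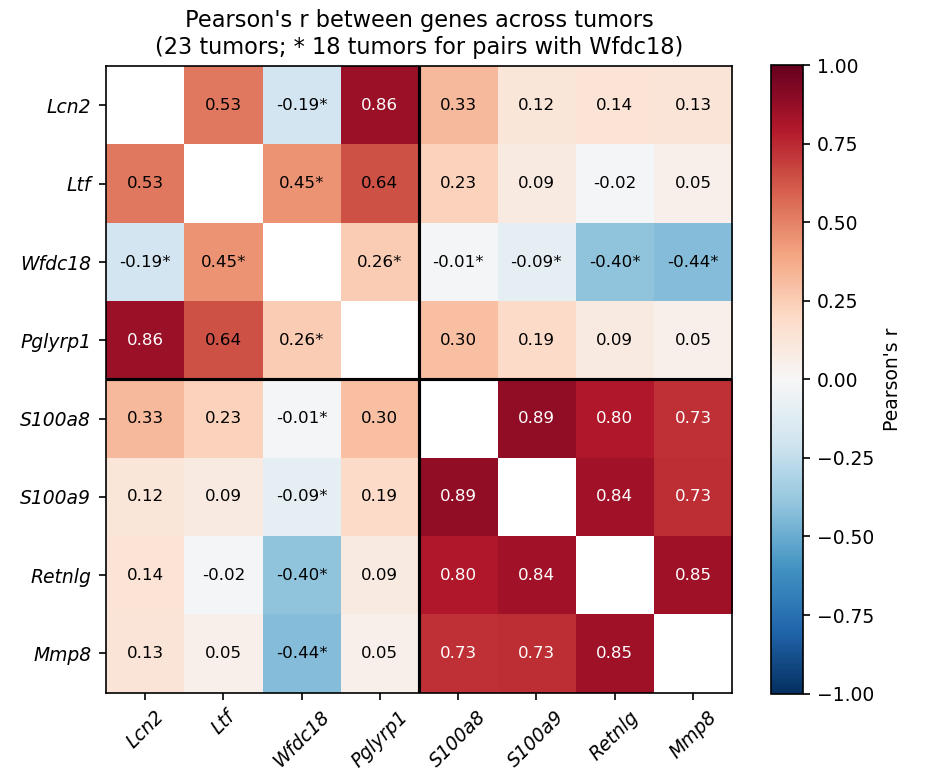
Pearson's r for each of the 28 pairs of members, on a color scale from -1 to 1, over 23 tumors or, where marked with an asterisk, over the 18 tumors in which Wfdc18 forms a single cluster. The lower right block of neutrophil pairs holds values from 0.73 to 0.89, and the upper right block of epithelial with neutrophil pairs holds values from -0.44 to 0.33.

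The neutrophil members formed a tight set. All 6 of their pairs were called, with r from 0.73 to 0.89 and a median of 0.82, against backgrounds of 0.415% of genes called on S100a8, 0.764% on S100a9 and 0.282% on Retnlg. S100a8 and S100a9 had r = 0.89 and rho = 0.93 (each with permutation p = 1e-05, limma adjusted p = 6e-06). Retnlg followed S100a9 with r = 0.84 and rho = 0.92 (limma adjusted p = 0.00021) and S100a8 with r = 0.80 and rho = 0.84 (limma adjusted p = 0.003). The collagenase gene Mmp8 followed Retnlg with r = 0.85 and rho = 0.92 (limma adjusted p = 0.00077), S100a9 with r = 0.73 (0.019) and S100a8 with r = 0.73 (0.031). Without the 2 farthest tumors these r lay between 0.73 and 0.88, though S100a9 with Mmp8 (limma adjusted p = 0.061) and Retnlg with Mmp8 (0.13) then missed the threshold. They lay between 0.72 and 0.90 for the 19 tumors above the gap in Epcam, where all 6 stayed past the threshold (1.12% of genes called on S100a8). With 1 tumor per title number, S100a8 with Retnlg (r = 0.74), S100a8 with Mmp8 (0.72) and S100a9 with Mmp8 (0.76) no longer passed, at limma adjusted p of 0.14, 0.31 and 0.11. The same 3 pairs did not pass within the 15 tumors above the gap in Fos, at 0.064, 0.27 and 0.13. S100a8 with Mmp8 and S100a9 with Mmp8 also missed the threshold with Fos as a covariate, at limma adjusted p of 0.0502 and 0.063, and with the title number as a block, at 0.14 and 0.078. The call of S100a8 with Mmp8 also ended without X1310T2, X1463T1, X1463T2, X154T or X493T2 (r from 0.69, adjusted p up to 0.095), and that of S100a9 with Mmp8 without X1463T1 or X154T (r from 0.70, adjusted p up to 0.056).

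**Figure D3:**
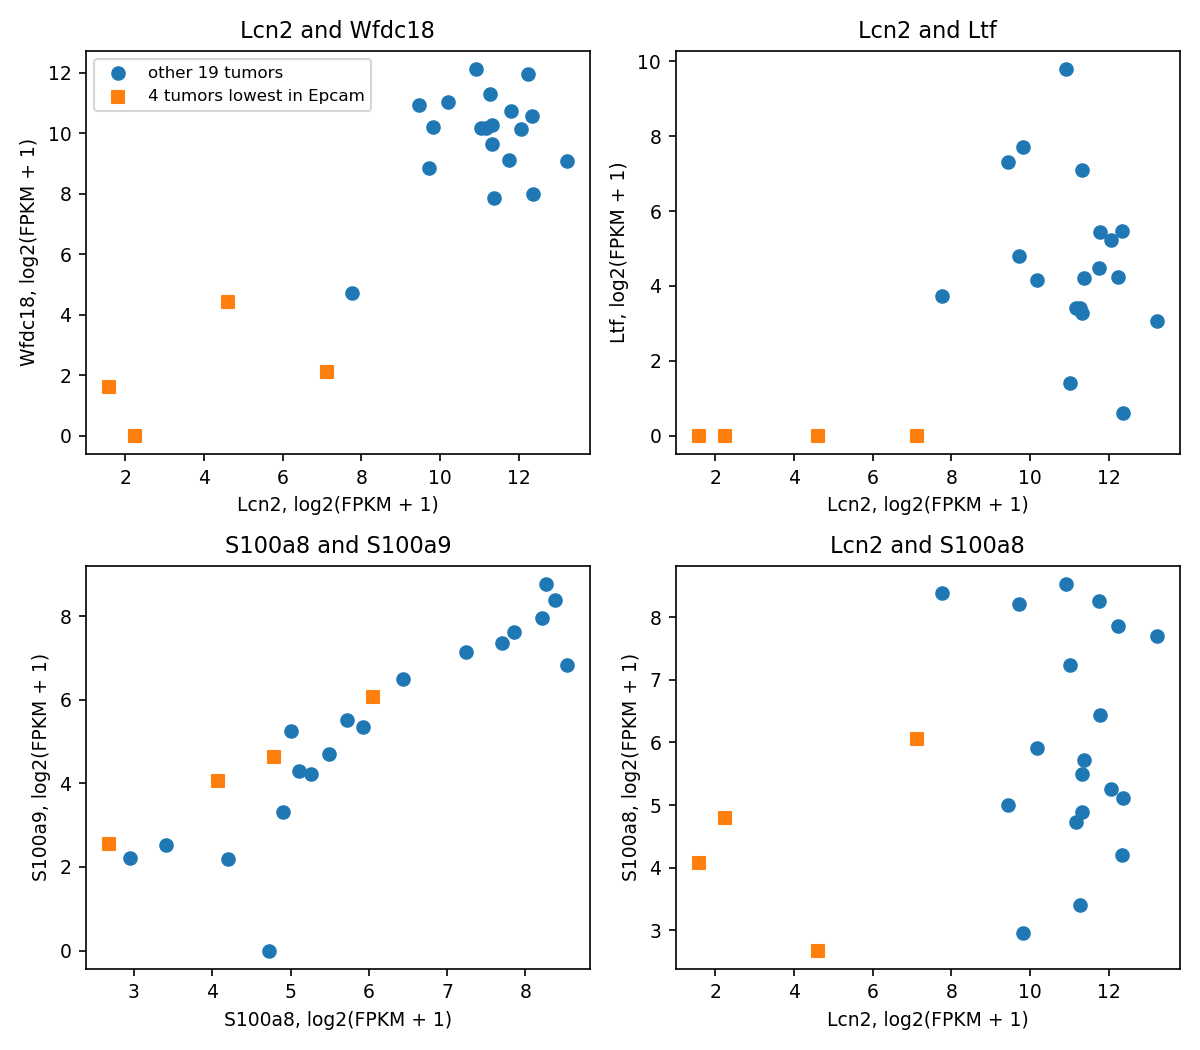
Levels in log2(FPKM + 1) of 4 pairs of members, 1 point per tumor, with the 4 tumors lowest in Epcam as squares and the other 19 as circles. The squares lie at the lower left for Lcn2 with Wfdc18 and for Lcn2 with Ltf, and they lie along the cloud of circles for S100a8 with S100a9, where X493T1, listed at 0 for S100a9, sits below it.

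Across the sets, none of the 16 pairs of an epithelial with a neutrophil member was called. Their r ran from -0.44 for Wfdc18 with Mmp8, over 18 tumors (rho = -0.38, permutation p = 0.0713 and 0.119, limma adjusted p = 0.94), to 0.33 for Lcn2 with S100a8, over 23 tumors (rho = 0.21, permutation p = 0.129 and 0.326, limma adjusted p = 0.29), with a median of 0.09. The 28 pairs form 1 family, and each limma p is adjusted over all genes tested. The shares of all genes called were 10.8% on Lcn2, 4.18% on Ltf and 8.79% on Pglyrp1 over 23 tumors, and 0% on Wfdc18 over 18. At these shares few or none of 16 pairs would be called, so the count of 0 alone does not part the sets. Single tumors went either way. X154T had S100a8 at 8.38, S100a9 at 8.40 and Retnlg at 5.14, near the top of each, beside Wfdc18 at 4.72 and Pglyrp1 at 2.87. X370T showed the reverse order, with Lcn2 at 12.35 and Wfdc18 at 10.57 beside S100a8 at 4.201, S100a9 at 2.19 and a listed 0 for Retnlg. Other tumors were high in both sets. X1310T1 had Lcn2 at 12.23 and Wfdc18 at 11.98 beside S100a8 at 7.85 and S100a9 at 7.63. X1463T2 had the highest Lcn2, 13.22, beside S100a8 at 7.70 and S100a9 at 7.36.

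To place the members among all genes, every tested gene was regressed on Lcn2 and on S100a8, with slopes in log2(FPKM + 1) units for each SD of the gene regressed on. On Lcn2, Wfdc18 had the largest positive slope of 12040 genes, 2.97 (SE 0.36, limma adjusted p = 5.38e-06). Pglyrp1 ranked 9th with 2.40 (SE 0.28) and Ltf 88th with 1.42 (SE 0.45). All 3 remaining epithelial members were thus called, against 5.3% of all genes called positive. These slopes are not scaled by the spread of each gene, and by SD Wfdc18 ranked 53rd, Pglyrp1 114th and Ltf 127th. S100a8 at 0.58 (SE 0.34), S100a9 at 0.28 (SE 0.46), Retnlg at 0.24 (SE 0.35) and Mmp8 at 0.14 (SE 0.24) were not, at adjusted p from 0.29 to 0.76. On S100a8, S100a9 ranked 2nd with 2.04 (SE 0.22), Retnlg 12th with 1.38 (SE 0.22) and Mmp8 90th with 0.83 (SE 0.17). All 3 were called, against 0.208% of all genes called positive. The epithelial members did not pass there, with slopes of 1.03 (SE 0.60) for Lcn2, 0.83 (SE 0.53) for Pglyrp1, 0.65 (SE 0.68) for Wfdc18 and 0.62 (SE 0.52) for Ltf at adjusted p from 0.48 to 0.70. The median slope of all genes was -0.02 on Lcn2 and -0.06 on S100a8. The slope of Wfdc18 on Lcn2 spans its separate clusters and, like its r above, has no counterpart within the 18 tumors, where it was -0.23 (SE 0.27).

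**Figure D4:**
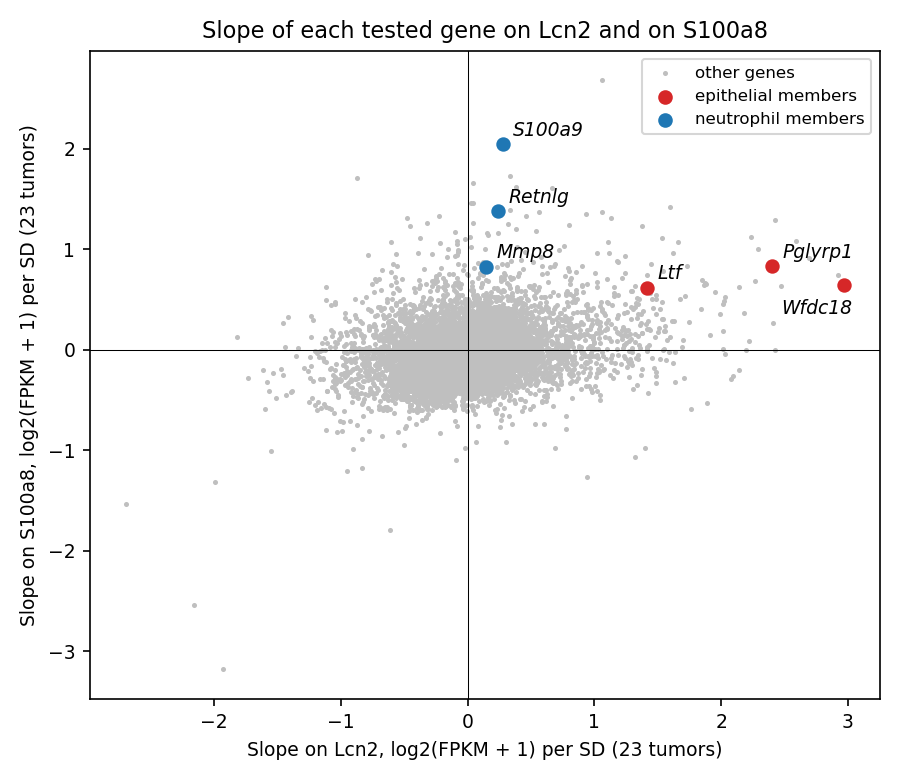
Slope of each tested gene on Lcn2 (horizontal) and on S100a8 (vertical), both in log2(FPKM + 1) per SD over 23 tumors, with epithelial members in red, neutrophil members in blue and all other genes in grey. Wfdc18, at 2.97, is the rightmost gene, and S100a9, at 2.04, is near the top, while each neutrophil member lies close to 0 on the horizontal axis.

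The difference itself was tested in 1 model with Lcn2 and S100a8 together, in which 7.28% of genes had slopes that differed, 4.65% in favor of Lcn2 and 2.63% in favor of S100a8. Wfdc18 followed Lcn2 more than S100a8 by 3.45 (SE 0.61, limma adjusted p = 0.0011) and Pglyrp1 by 2.33 (SE 0.49, adjusted p = 0.0044). S100a9, with a difference of -2.63 (SE 0.35, adjusted p = 5.62e-05), Retnlg with -1.69 (SE 0.37, adjusted p = 0.006) and Mmp8 with -1.01 (SE 0.30, adjusted p = 0.039) followed S100a8 more. Ltf was not placed, with a difference of 1.19 (SE 0.80, adjusted p = 0.42). Within the 19 tumors above the gap in Epcam, with 4.1% of genes called, the neutrophil members kept their call (S100a9 -2.33, Retnlg -1.71, Mmp8 -1.09), while Wfdc18 at 0.95 (adjusted p = 0.27), Pglyrp1 at 0.95 (0.19) and Ltf at -0.47 (0.71) did not pass. Within the 15 tumors above the gap in Fos, S100a9 kept its call at -2.63, and Wfdc18 (2.57, adjusted p = 0.13), Pglyrp1 (2.44, 0.059), Retnlg (-1.67, 0.12) and Mmp8 (-1.20, 0.22) lost theirs. The call of Mmp8 ended on leaving out any of X1310T2, X1463T1, X147T, X154T, X370T, X4351T, X493T1, X493T2, X606T or X738T, with -0.77 without X1310T2 and adjusted p up to 0.14, and with 1 tumor per title number (-0.83, adjusted p = 0.12), the title number as a block (-0.998, 0.063) or ranks (-0.98, 0.056). As ranks, Wfdc18 (1.85, 0.26) and Pglyrp1 (1.45, 0.19) did not pass either.

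A score from other genes of each cell type gives a reading that does not use the values of the members. The lists were chosen with earlier results of these data known, so the scores are not independent support. The epithelial score, the mean z-score of 17 genes, had a gap that left 19 tumors, in which 0.0914% of genes were called and no member was among them. Ltf had the 9th largest slope of 12040 genes, 1.34 (SE 0.38, limma adjusted p = 0.15), Wfdc18 had 0.80 (SE 0.33), Pglyrp1 0.48 (SE 0.33) and Lcn2 -0.16 (SE 0.28). The neutrophil members had slopes of -1.16 for S100a9, -1.14 for Retnlg, -0.88 for S100a8 and -0.57 for Mmp8, at limma adjusted p from 0.13, for Retnlg, to 0.37. They lay at the other end of the order, at ranks 12029, 12028, 12005 and 11903 of 12040. Ltf passed after rescaling without short non-coding RNAs, at 1.60 (limma adjusted p = 0.034), and was the exception among the members and alternatives run.

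The neutrophil score, from 21 genes other than the members, set X1310T2, X1463T1 and X154T apart, and the fit used the other 20 tumors, in which 0.0748% of genes were called. S100a9 rose by 1.65 per SD (SE 0.26, limma adjusted p = 0.0066), the 2nd largest slope, and S100a8 by 1.26 (SE 0.22, adjusted p = 0.016). Retnlg at 0.83 (SE 0.25, adjusted p = 0.50) and Mmp8 at 0.43 (SE 0.14, adjusted p = 0.63) did not pass, and their highest tumors, X154T and X1310T2, were among the 3 left out. The epithelial members gave 0.40 for Ltf (SE 0.61), 0.10 for Pglyrp1 (SE 0.60), 0.06 for Lcn2 (SE 0.71) and -0.03 for Wfdc18 (SE 0.77), whose wide errors leave room for slopes in either direction. With 1 tumor per title number neither calprotectin gene kept its call (S100a8 1.09, adjusted p = 0.14, and S100a9 1.51, adjusted p = 0.084). Neither kept it within the tumors above the gap in Fos (S100a8 1.54, adjusted p = 0.28, and S100a9 1.72, adjusted p = 0.095), and S100a9 lost it with the title number as a block (1.55, adjusted p = 0.051). The call of S100a8 also ended on leaving out X1310T1, X1463T2 or X1515T, with adjusted p up to 0.07. All 13 macrophage genes had positive slopes on this score, with a median of 0.56 and 0 called, against a median of 0.54 for the 21 neutrophil genes that make up the score, and the part of macrophages in the result was not tested. Hemoglobin beta (Hbb-b1), a marker of red cells, had a slope of 1.34 on this score (SE 0.64, adjusted p = 0.81), and the part of blood in the result was not tested.

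**Figure D5:**
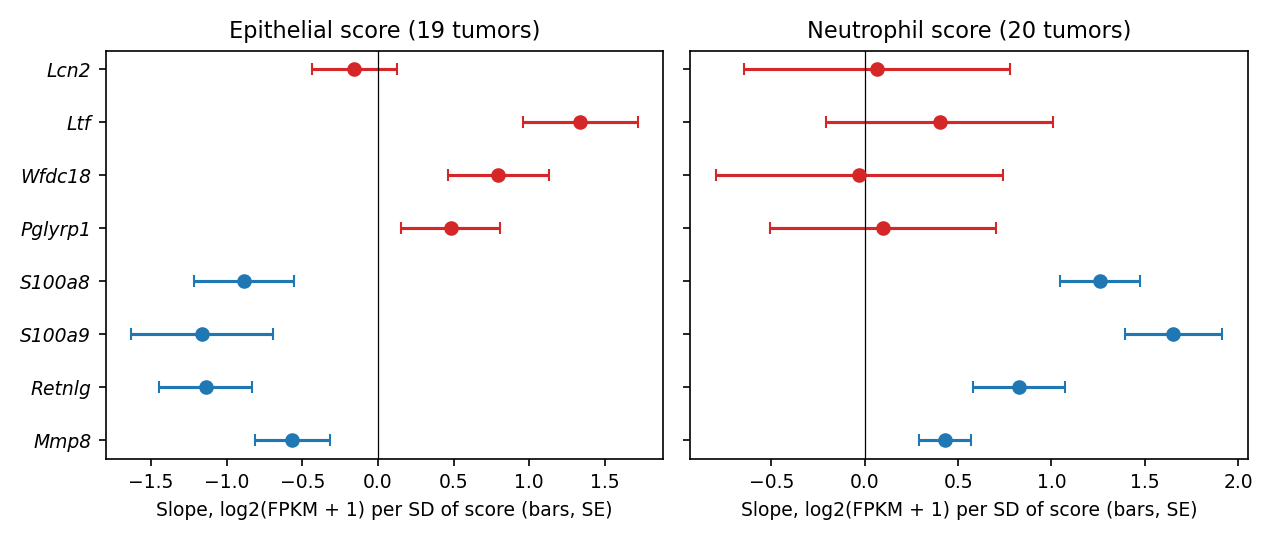
Slope of each member in log2(FPKM + 1) per SD of the epithelial score over 19 tumors (left) and of the neutrophil score over 20 tumors (right), with bars for the SE, epithelial members in red and neutrophil members in blue. S100a9 at 1.65 and S100a8 at 1.26 were called on the neutrophil score, and no member was called on the epithelial score.

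The defining markers were read in the same tumors. Krt8 and Krt18, keratins of luminal epithelium, were above an FPKM of 1 in all 23 tumors. Of the other epithelial markers, Epcam and Cdh1 reached it in 21 tumors and Cldn7 in 20, each listed at 0 in 1. Csf3r, the receptor for the growth factor of granulocytes, reached an FPKM of 1 in 19 tumors with a median of 2.48, and Cxcr2, a receptor for neutrophil chemokines, in 21 tumors with a median of 1.61. Asprv1 reached an FPKM of 1 in 20 tumors, Trem1 in 15 and Stfa2l1 in 12. Cd177 was listed at 0 in 15 tumors, and Ly6g and Cxcr1 were not among the 14535 genes by symbol. The summed FPKM of the 29 neutrophil genes in the table ran from 28.3 in X493T2 through a median of 156 to 1784 in X738T, a tumor in which Mmp9, a gelatinase gene that other cells also express, stood at 10.69. X1515T, highest in S100a8 and Ltf, also had the highest summed level of 15 keratinization genes, 2022 FPKM against a median of 52.6, with Krt6a at 8.57. Asprv1, read above with the neutrophil markers, was highest in the same tumor, at 8.15. On S100a8, 11 of 12 tested keratinization genes had positive slopes, with a median of 0.67 and 0 called. The part of keratinized cells in the S100a8 level was not tested.

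Other neutrophil genes moved with S100a8 more than with Lcn2: of 21 tested genes, 12 had slopes that differed in favor of S100a8 (background 2.63%) and 0 in favor of Lcn2, with a median difference of -1.37. A difference in favor of S100a8 can also come from a negative slope on Lcn2. It was found for 3 of 13 macrophage genes, led by Msr1 at -1.84, and 5 of 13 mesenchymal genes, led by S100a4 at -1.65. In both lists 0 differed in favor of Lcn2, and the median differences were -1.22 and -0.82. Their median slopes on S100a8 alone were -0.10 and -0.11, with 4 of 13 genes positive in each list, against -0.86 and -0.83 on Lcn2. These 2 lists thus ran against Lcn2 and did not rise with S100a8. The part of these cells in the difference was not tested. On S100a8 alone, 6 of these 21, none of them a member, were called, all positive (background 0.208%), with a median slope of 0.75 over the list: Stfa2l1, a stefin-like protease inhibitor gene, at 1.73 (SE 0.21), Il1b at 1.27 (SE 0.27), the histidine decarboxylase gene Hdc at 1.25 (SE 0.20), Stfa2, the formyl peptide receptor gene Fpr2 and Clec4d. On Lcn2, 0 of the 21 were called positive (background 5.3%) and 2 negative (background 5.54%), Mmp9 at -1.46 (SE 0.40) and the integrin gene Itgam at -0.91 (SE 0.25), and the list median was 0.10. Of 13 macrophage genes, 5 were called negative on Lcn2, among them Csf1r at -1.08 (SE 0.31), and none on S100a8. The chemoattractant list had 2 of 10 called on S100a8, Ccl3 at 1.33 (SE 0.29) and Il1b, which is in both lists, and 0 on Lcn2.

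Over all 23 tumors, epithelial genes moved with Lcn2 more than with S100a8. Slopes differed in favor of Lcn2 for 13 of 17 epithelial, 6 of 12 luminal progenitor and 2 of 14 milk genes (background 4.65%) and in favor of S100a8 for 0. On Lcn2 alone, 16 of the 17 epithelial genes were called positive (background 5.3%), led by Epcam at 2.69 (SE 0.26), as were 7 of 12 luminal progenitor genes, among them the lineage factor genes Elf5 at 2.02 (SE 0.27) and Ehf at 1.99 (SE 0.25), and 7 of 14 milk genes, with kappa-casein (Csn3) at 2.59 (SE 0.45). None of these 3 lists had a gene called on S100a8, which is near the background of 0.415% in either direction. Of 13 mesenchymal genes, 8 were called negative on Lcn2 (background 5.54%). The epithelial score parts the same 4 tumors from the rest as Epcam does, so these counts are not independent of the levels given above. Within the other 19 tumors Lcn2 had a slope of -0.16 on that score (SE 0.28, limma adjusted p = 0.85). There 0.964% of genes were called on Lcn2, and the lists were not counted.

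Among other antimicrobial and acute phase genes, few slopes differed between the 2 predictors. Of 21 tested, 2 differed in favor of Lcn2 (background 4.65%) and 3 in favor of S100a8 (background 2.63%). On Lcn2, 6 of 21 were called positive (background 5.3%): the chitinase-like gene Chil1 at 2.42 (SE 0.38), Wfdc3, a relative of Wfdc18, at 1.42 (SE 0.32), the lipopolysaccharide-binding protein gene Lbp at 1.26 (SE 0.24), Hp, Saa1 and Wfdc2. The lysozyme genes Lyz1 and Lyz2, the latter at -1.19 (SE 0.36), were called negative (background 5.54%). On S100a8, 3 of 21 were called, all positive (background 0.208%): Saa3, an acute phase serum amyloid gene, at 1.62 (SE 0.30), Wfdc17 and Wfdc21. Saa1 and Chil1, called on Lcn2, also had slopes of 1.31 and 1.29 on S100a8 that were not called. Within the whey acidic protein family, the slopes differed in favor of Lcn2 for Wfdc3 at 1.79 (SE 0.55, limma adjusted p = 0.047), as they did for Wfdc18, and in favor of S100a8 for Wfdc17 at -1.73 (SE 0.37, adjusted p = 0.005). Wfdc2 at 1.20 (SE 0.62) and Wfdc21 at -0.93 (SE 0.33) did not pass that test. Of 10 iron-handling genes, 2 were called on Lcn2, transferrin (Trf) at 1.23 (SE 0.23) and the lipocalin 2 receptor gene Slc22a17 at 0.67 (SE 0.20), and none on S100a8. In the test of the difference these 2 were in favor of Lcn2, at 1.80 (SE 0.38) and 1.38 (SE 0.31), and 3 of the 10 were in favor of S100a8: the heme oxygenase gene Hmox1 at -1.36 (SE 0.38), the macrophage iron transporter gene Slc11a1 at -1.28 (SE 0.35) and the ferritin light chain gene Ftl1 at -0.61 (SE 0.14). Of 21 genes for regulators of Lcn2 transcription 0 were called positive on Lcn2, with Cebpd at 0.35 (SE 0.19, limma adjusted p = 0.25), and 1, Nfkb1, was called negative at -0.55 (SE 0.14), both near or below the background of 5.3% and 5.54%.

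The genes whose pattern was most like each member were ranked by Pearson's r among 11882 genes, as a description. Lcn2 was most like Fxyd3 (r = 0.95), Spint2 (0.91) and Klc3 (0.90), and Pglyrp1 was most like Ehf (0.92), Shf (0.90) and Epcam (0.89), each over 23 tumors. Ltf was most like Abhd11os (0.87), Nfe2l3 (0.85) and Sowahb (0.84). For Lcn2, Pglyrp1 and Ltf these r include the 4 tumors lowest in Epcam, which lay below the other 19 in each. Such a ranking without those tumors is not given. Abhd11os overlaps Abhd11 on the opposite strand, and since the library kit named in the labels does not keep strand, reads from the overlap cannot be told apart. Wfdc18, over 18 tumors, was most like Ehf (0.78), Clasp1 (0.73) and Rbm4 (0.71). The nearest gene to S100a8, S100a9 and Retnlg was in each case Stfa2l1, at 0.87, 0.89 and 0.89, followed by Rdh12 (0.81) for S100a8, Il1r2 (0.87) for S100a9 and Gm5483 (0.88) for Retnlg. Mmp8 was most like Gm5483 (0.88), Fpr2 (0.87) and Stfa2l1 (0.87). Stfa2l1 and Gm5483 belong to a cluster of similar stefin genes, among which fragments could have been split.

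The members of calprotectin were not always balanced. S100a8 exceeded S100a9 in 18 of 23 tumors, by most in X493T1, where S100a8 was 4.73 and S100a9 was listed at 0, which can be a failed estimate. The next largest differences were 2.01 in X370T, 1.702 in X1515T and 1.58 in X606T. Retnlg was listed at 0 in X370T and X606T, where S100a8, at 4.20 and 4.90, was also below its median of 5.50. In X1515T Retnlg stood at 1.43, above its median of 1.20. At the other end S100a9 exceeded S100a8 by most in X1463T1, with a difference of -0.51.

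Tumors that share a title number were compared for each member. For Lcn2 the difference within the 4 such pairs ran from 0.08 to 2.51 with a median of 0.89, against a median of 1.92 over all 253 pairs of tumors. S100a8 differed by 0.36 to 1.75, with a median of 0.94 against 1.94. Pglyrp1, by contrast, differed by 1.61 to 3.46 with a median of 1.67 against 2.05, and Ltf by as much as 5.68, between 7.08 in X149T1 and 1.41 in X149T2. X1310T1 and X1310T2 were nearly alike in S100a8, at 7.85 and 8.21, and apart in Retnlg, at 1.56 and 4.75, and in Mmp8, at 1.27 and 4.02. With 4 pairs these are values and not a test.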

How the data were processed

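Bulk RNA of 23 Brca1-deficient mouse mammary tumors was profiled, 1 library per tumor. The authors deposited 1 table of log2(FPKM + 1) values. Per the submitters' processing notes, reads were trimmed with Trimmomatic 0.35, aligned to mm10 with TopHat2 2.0.13 and quantified with Cufflinks 2.2.1 (the study's methods name another TopHat release). The labels name a NEBNext Ultra RNA kit, which does not mark strand. FPKM holds no counts, so depth is unknown, and a listed 0 can be a failed estimate.

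Testing covered the 12041 genes whose mean FPKM reached 1, on the deposited scale, with a pseudocount of 1 that understates the change of low genes. Regressions used limma 3.58.1 (trend, two-sided) in R 4.3.3, with Benjamini-Hochberg adjustment over all tested genes and a threshold of 0.05, and were checked on simulated data. Pairs were also given by two-sided permutation tests with 100000 draws. Where a gap of 25% of the range had 3 or more tumors on each side, the largest cluster was used. All 23 tumors are 1 group by their labels, so no groups were compared. Members and gene lists were chosen with earlier results of these data known, and list counts are descriptions. Named genes were the 8 members, for each member the 3 genes with the highest r, up to 4 genes of a list with the largest slopes, cell type markers, and genes that touch a result. Hp, Saa1, Wfdc2, Lyz1, Wfdc17, Wfdc21, Stfa2, Fpr2 and Clec4d (each called in its list), Ftl1 and Cebpd were named after their values were seen. Promoter sequences are from RefSeq (GRCm38.p6), in which all 8 members matched by symbol. Alternatives tried were a pseudocount of 0.1, other filters, rescaling without short non-coding RNAs, 1 tumor per title number, the title number as a block (limma's duplicateCorrelation), leaving out tumors, tumors above a gap in Epcam or Fos, Fos as a covariate, and ranks.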

Additional observations from a re-analysis of the deposited data

How the results depend on the processing

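All 23 tumors carry 1 group label, so no numbers pair samples across groups. With the title number as a replicate block, an alternative chosen after seeing the data, the counts became 15 on S100a8, 55 on the epithelial score and 4 on the neutrophil score, and on the latter Wfdc18 gave 0.067 and Pglyrp1 -0.00098. Of 400 named values under alternatives other than single removals, 347 kept direction and side of the threshold, 37 lost their call, 1 gained it and 15 changed sign. The causes were not tested, beyond fewer tumors or genes where an alternative leaves them out. The count called on S100a8, 50 of 12040 genes, became 24 with a pseudocount of 0.1, 31 with a mean FPKM of 5 or more, 109 on rescaling, 2 with 1 tumor per title number and 24 without the 2 most distant tumors. The neutrophil score count of 9 became 17 with the pseudocount, 5 with 1 tumor per title number and 5 without the most distant tumors. The epithelial score count of 11 became 31 with the filter, 107 on rescaling, where Ltf gained its call at 1.60, 2 with 1 tumor per title number and 1 without the most distant tumors. The Lcn2 count of 1305 became 554 without the most distant tumors, and the count of differing slopes, 877, became 497 with 1 tumor per title number and 448 as ranks, where Wfdc18 (1.85), Pglyrp1 (1.45) and Mmp8 (-0.98) lost their call. Above the Epcam gap the counts were 116 on Lcn2, 135 on S100a8, 14 on the neutrophil score and 494 for the difference. Above the Fos gap, an alternative chosen after seeing the data with 15 tumors, they were 674, 5, 1 and 171, with 4 on the epithelial score and 4 pairs of members in place of 9. With Fos as a covariate the epithelial and neutrophil score counts were 6 and 16. On removing 1 tumor at a time, the counts ran from 872 to 1340 on Lcn2, 15 (without X493T2) to 70 on S100a8, 4 (without X1463T2) to 50 (without X154T) on the epithelial score, 5 (without X1310T1) to 15 on the neutrophil score, 592 to 959 for the difference and 6 to 9 for pairs, with Lcn2 and Ltf losing their call in 10 removals. The S100a8 count moved by over 1.5 times without X1310T1, X1310T2, X1463T1, X1463T2, X154T, X493T1 or X493T2, the neutrophil score count without X1310T1, X2265T, X370T or X92T, and the epithelial score count in 12 of the removals.

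Changes of sign concerned values that were not called, except Lcn2 with Ltf, whose r was -0.26 above the Epcam gap. There, Lcn2 with S100a8 had r = -0.088 and the Ltf difference was -0.47, and as ranks that difference was -0.0047. The Lcn2 slope on the epithelial score was 0.20 with 1 tumor per title number, 0.21 without the most distant tumors and from -0.43 to 0.18 on single removals. On the neutrophil score, Lcn2 gave -0.19 with 1 tumor per title number and -0.26 to 0.34 on removals, Ltf -0.10 to 0.65 and Pglyrp1 -0.18 to 0.35. Wfdc18 gave 0.11 on rescaling, 0.11 with 1 tumor per title number, 0.17 without the most distant tumors, 0.34 above the Epcam gap, 0.033 as ranks, 0.87 above the Fos gap and -0.36 to 0.35 on removals. No pair across the sets was called under any alternative run. With a mean FPKM of 5 or more, Mmp8 was not tested. FPKM gives no depth, so how far depth limits the low values of Retnlg and Mmp8 could not be judged.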
